A study of Mus musculus with 6 samples.

Results

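The genes described here encode 8 adhesion molecules that endothelial cells, the cells lining blood and lymphatic vessels, use to hold leukocytes or to bind each other. They were taken by symbol, as Sele, Selp, Icam1, Icam2, Vcam1, Madcam1, Alcam and Mcam, from a table of read counts for 24421 genes, and all 8 were present in it. The study asked what Dot1l, the enzyme that methylates histone H3 at lysine 79, does to transcription in blood endothelial cells (BECs) and lymphatic endothelial cells (LECs). RNA-seq was done on 6 mouse libraries, 1 for each condition, so that each comparison sets 1 library beside another.

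The skin pair came from E15.5 embryos. Cont BECs were from Tie2-Cre(-); Dot1l 2f/2f littermates, labelled wild type although both groups carried the floxed Dot1l alleles, and cKO BECs were from Tie2-Cre(+); Dot1l 2f/2f embryos, labelled Dot1l KO. These cells were depleted of F4/80+ and CD45+ cells and sorted as Lyve1- and CD31+, and each library pooled RNA from the skin of 2 to 3 embryos. Tie2-Cre is active in endothelial cells and also in part of the blood lineage. The cultured libraries came from a yolk sac BEC line (CRL-2581) and from dermal LECs (C57-6064L), both embryonic, wild type by label and each from 1 source. Cont cells carried an empty lentivirus, whereas OE-BECs and OE-LECs (Dot1l OE) carried dCas9-VP64, a transcriptional activator without nuclease activity, with guides to the Dot1l promoter. Transduced cells were sorted for EGFP, and each library pooled 2 to 3 flasks.

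Leukocytes leave the blood in steps. The selectins, E-selectin (Sele) and P-selectin (Selp), catch passing leukocytes by their sugar ligands and let them roll. The immunoglobulin family members ICAM-1, ICAM-2 and VCAM-1 then bind leukocyte integrins for firm adhesion, and MAdCAM-1 does so for lymphocytes that carry integrin alpha4 beta7, mainly in gut. ALCAM binds CD6 on T cells as well as itself, and MCAM (CD146) sits at endothelial junctions and on pericytes. Endothelial cells keep P-selectin ready in Weibel-Palade bodies, the granules that also store von Willebrand factor. Sele, Vcam1 and Icam1 are textbook genes of the response to TNF and IL-1, switched on through NF-kB.

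Levels are given in CPM, the reads of a gene per 1000000 reads of its library. Depth ran from 8863349 reads (skin Cont) to 31032461 reads (OE-LEC). Dot1l read 86.0 CPM in skin Cont (762 reads) against 85.2 CPM under the label cKO (944 reads), which gave -0.07 on the log2 scale (95% interval -0.21 to 0.07), so that its level did not mark the genotype. The deleted exons were not examined separately, and all directions below that involve the skin pair are those of the library labelled cKO. Dot1l was higher in OE-BECs, at 4208 against 1972 reads (log2 ratio 1.48, 1.40 to 1.55), and in OE-LECs, at 6720 against 2490 reads (1.20, 1.13 to 1.27). The labels of the cells were checked too. Prox1, the transcription factor that defines LECs, was at 0 reads in all 4 cultured libraries, and Pdpn, Reln, Ccl21a and Mmrn1 had 3 reads or fewer in both LEC libraries. The other 2 lymphatic markers were present, Lyve1 at 1998 and 1962 CPM in cultured Cont LECs and OE-LECs against 604 and 1061 in cultured Cont BECs and OE-BECs, and Flt4 at 107 and 130 CPM against 144 and 98.3. The LEC libraries are therefore named by their label only. The skin libraries, sorted as Lyve1-, held Lyve1 at 1027 CPM (Cont) and 1801 CPM (cKO) and Prox1 at 147 and 79.7 CPM. All intervals are exact 95% intervals and cover counting error only, since amplified reads carried no molecular identifiers to tell copies from molecules and no library was repeated.

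Sele and Selp are neighbours, at chr1:164048234-164057677 and chr1:164115264-164150026 (mm10, + strand), with 57.6 kb between them. Since the selectins gave the widest differences among the 8 genes in skin and Icam1 the widest between skin and culture, the 250 bases before the RefSeq start of these 3 genes are shown (GRCm38.p6, all + strand, at chr1:164047984-164048233 for Sele, chr1:164115014-164115263 for Selp and chr9:21015690-21015939 for Icam1). Capitals mark matches, on either strand, to GGG and CC set apart by any 5 bases, a loose form of the NF-kB site, or to TTCNNNGAA, a STAT site, and in Sele the matches overlap.
Sele: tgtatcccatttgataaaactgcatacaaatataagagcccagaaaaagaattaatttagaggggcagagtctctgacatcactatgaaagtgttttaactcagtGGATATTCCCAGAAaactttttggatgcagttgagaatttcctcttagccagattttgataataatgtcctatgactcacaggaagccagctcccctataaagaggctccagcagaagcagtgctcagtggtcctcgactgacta
Selp: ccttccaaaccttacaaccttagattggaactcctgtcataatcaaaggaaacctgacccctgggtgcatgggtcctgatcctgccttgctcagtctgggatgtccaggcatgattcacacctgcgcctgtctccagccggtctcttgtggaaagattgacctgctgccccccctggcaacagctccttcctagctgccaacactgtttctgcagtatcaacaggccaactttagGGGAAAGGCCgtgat
Icam1: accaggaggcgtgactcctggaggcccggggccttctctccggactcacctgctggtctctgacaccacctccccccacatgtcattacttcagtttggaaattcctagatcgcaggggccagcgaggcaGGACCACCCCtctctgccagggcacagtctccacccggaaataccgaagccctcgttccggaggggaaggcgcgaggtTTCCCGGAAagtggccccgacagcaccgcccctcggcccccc
The NF-kB letters stood at -145 to -136 in Sele, -15 to -6 in Selp and -120 to -111 in Icam1, counted from the base before the start. The STAT letters stood at -140 to -132 in Sele and -42 to -34 in Icam1. TGANTCA, the AP-1 letters, occurred in Sele (-73 to -67) and Selp (-139 to -133), and TATAAA occurred in Sele (-49 to -44), all 3 in lower case above. Of 32536 promoters of this length, 46.0% held the NF-kB letters, 7.04% the STAT letters, 6.73% the AP-1 letters and 12.3% TATAAA, so the NF-kB match is common and none of these matches shows that a factor binds. The promoter table matched 6 of the 8 genes, all but Vcam1 and Icam2.

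The selectin pair gave the lowest ratios among the 8 genes in the library labelled cKO. Sele, the cytokine-induced rolling receptor, was at 18.4 CPM in skin Cont (163 reads), 1.80 in the library labelled cKO (20 reads), 11.3 in cultured Cont BECs, 27.7 in OE-BECs, 29.7 in cultured Cont LECs and 54.4 in OE-LECs. Its lowest level was thus in the library labelled cKO and its highest in OE-LECs. Sele was 10.6-fold lower in the library labelled cKO than in skin Cont (log2 ratio -3.40, -4.15 to -2.73). In the cultured pairs it lay on the other side, 2.53-fold higher in OE-BECs (1.34, 1.09 to 1.59) and 1.86-fold higher in OE-LECs (0.89, 0.77 to 1.02). Ranked among genes that had 20 or more reads in a pair, Sele was the 21st lowest of 14425 in skin, the 340th highest of 12488 in OE-BECs and the 374th highest of 12342 in OE-LECs.

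Selp, the granule-stored rolling receptor, was at 14.7 CPM in skin Cont (130 reads) and 3.97 CPM in the library labelled cKO (44 reads), but at 524, 374, 575 and 739 CPM in cultured Cont BECs, OE-BECs, cultured Cont LECs and OE-LECs. Every cultured library was therefore above both skin libraries, and skin Cont was 42.2-fold lower than cultured Cont BECs (log2 ratio -5.40, -5.66 to -5.15). Within skin, Selp was 3.84-fold lower in the library labelled cKO (-1.94, -2.47 to -1.44). In culture its ratios took opposite signs under the main scaling, at -0.45 (-0.50 to -0.40) in OE-BECs and 0.38 (0.35 to 0.41) in OE-LECs. Scaled to the summed endothelial markers described further on, both were above 0, at 0.08 and 0.42. An antisense gene, Gm16548, shares 438 exonic bases with Selp and had 0 to 35 reads per library, among them 7 in skin Cont and 0 in the library labelled cKO. The study's methods name option -S of the counting program without saying what it sets, so whether strand was used is open to doubt and reads of the shared bases could belong to either gene. Opposite-strand genes also overlap Icam1 (511 bases), Vcam1 (61 bases) and Mcam (17 bases).

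The make-up of the selectin pair within a library does not depend on scaling. Reads of Sele per read of Selp came to 1.25 for skin Cont and 0.455 for the library labelled cKO, with a log2 change of -1.46 (-2.37 to -0.59), so the ratio of Sele was below that of Selp beyond counting error. The same quotient was 0.0215 in cultured Cont BECs and 0.0741 in OE-BECs (change 1.79, 1.53 to 2.05), and 0.0516 in cultured Cont LECs and 0.0736 in OE-LECs (change 0.51, 0.39 to 0.64). Sele thus gained on Selp in both OE libraries.

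**Figure D1:**
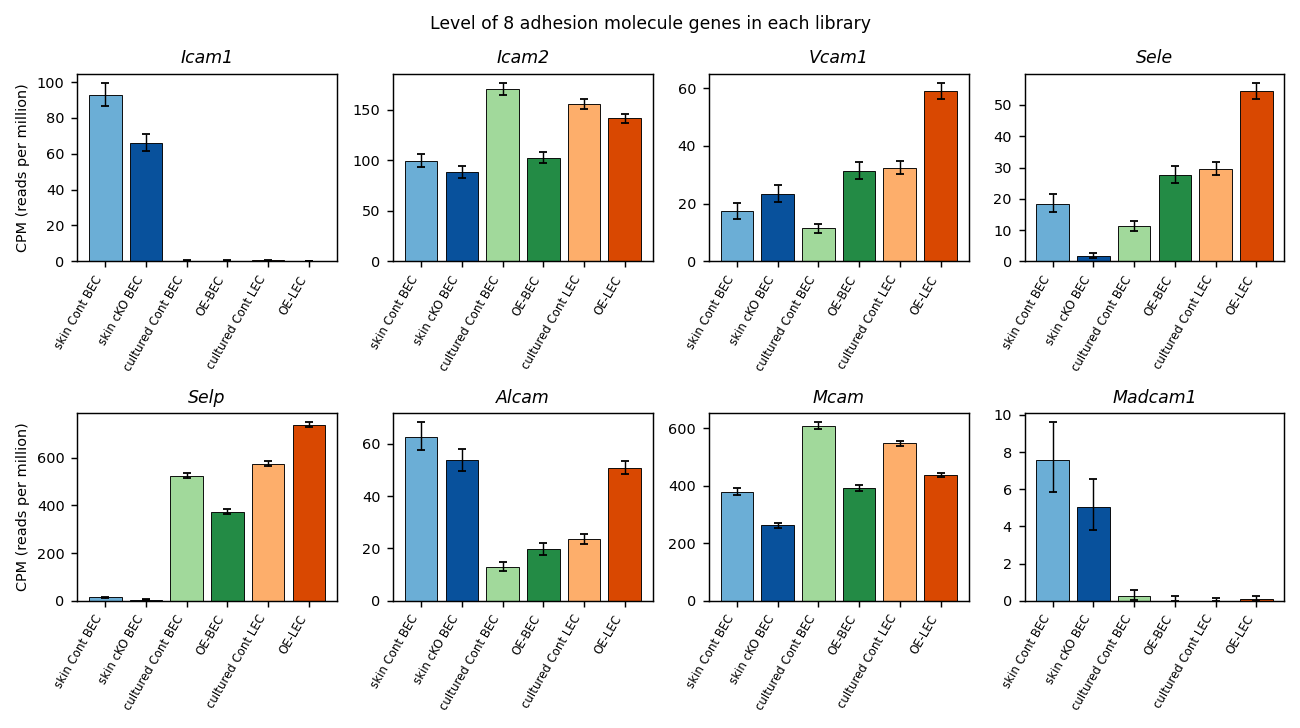
Level of each gene in CPM (y axis, linear, from 0, scaled for each gene) in the 6 libraries (x axis), 1 bar per library with its exact Poisson 95% interval. Icam1 and Madcam1 stand in the skin libraries, Selp stands in the cultured ones, and Sele is lowest, at 1.80 CPM, in the skin library labelled cKO.

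Of the 4 firm adhesion genes, Vcam1 lay above its control in skin and Icam1, Icam2 and Madcam1 below it. Vcam1 (chr3:116109949-116129688, - strand), which binds integrin alpha4 beta1 on lymphocytes and monocytes, was at 17.4 CPM in skin Cont (154 reads), 23.5 in the library labelled cKO (260 reads), 11.4 in cultured Cont BECs, 31.2 in OE-BECs, 32.4 in cultured Cont LECs and 59.1 in OE-LECs. It was the 1 gene of the 8 with a ratio above 0 in skin (0.38, 0.08 to 0.67). In culture Vcam1 stood 2.82-fold higher in OE-BECs (1.50, 1.25 to 1.75; 267th highest of 12488 genes) and 1.84-fold higher in OE-LECs (0.88, 0.76 to 1.002). Sele and Vcam1 kept nearly the same proportion in the cultured libraries, with 0.990, 0.887, 0.915 and 0.921 reads of Sele per read of Vcam1 in cultured Cont BECs, OE-BECs, cultured Cont LECs and OE-LECs. The change of that quotient, which restates the ratios given above for both genes, was -0.16 (-0.51 to 0.20) in OE-BECs and 0.01 (-0.16 to 0.18) in OE-LECs, both spanning 0. Skin Cont had a like value of 1.06, whereas the library labelled cKO had 0.0769, a change of -3.78 (-4.59 to -3.03).

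Icam1 (chr9:21015985-21028817, + strand), the cytokine-inducible ligand of the integrins LFA-1 and Mac-1, was at 93.0 CPM in skin Cont (824 reads) and 66.2 CPM in the library labelled cKO (734 reads), but had 4, 4, 14 and 4 reads in cultured Cont BECs, OE-BECs, cultured Cont LECs and OE-LECs, which is 0.129 to 0.536 CPM. Skin Cont was 348-fold higher than cultured Cont BECs (log2 ratio 8.44, 7.08 to 10.32). Tissue, culture, lentivirus and gates all differ between those 2 libraries, and their parts in the ratio cannot be told apart. In the skin pair the ratio of Icam1 was -0.54 (-0.69 to -0.40). In OE-LECs it was -2.04 (-4.10 to -0.37) on 14 and 4 reads, and in OE-BECs, with 4 reads on each side, a change was not detectable at this depth.

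Icam2 (chr11:106377656-106388075, - strand), which resting endothelium carries without induction, was at 99.4 CPM in skin Cont, 88.3 in the library labelled cKO, 170 in cultured Cont BECs, 103 in OE-BECs, 156 in cultured Cont LECs and 141 in OE-LECs. Its span over the 6 libraries, 1.93-fold, was the narrowest of the 8 genes. The ratios were -0.23 (-0.36 to -0.09) in skin, -0.69 (-0.78 to -0.60) in OE-BECs and -0.12 (-0.18 to -0.06) in OE-LECs, all below 0 by more than counting error. Madcam1 (chr10:79664559-79668537, + strand), the mucosal addressin, had 67 reads in skin Cont and 56 in the library labelled cKO, or 7.56 and 5.05 CPM. It had 4, 0, 0 and 2 reads in cultured Cont BECs, OE-BECs, cultured Cont LECs and OE-LECs, where 0 reads have an upper 95% limit of 0.265 CPM in OE-BECs and 0.141 CPM in cultured Cont LECs. Its skin ratio was -0.64 (-1.18 to -0.10), and no fold could be read from culture.

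Alcam (chr16:52248996-52454074, - strand), the CD6 ligand, was at 62.7 CPM in skin Cont, 53.7 in the library labelled cKO, 12.9 in cultured Cont BECs, 19.7 in OE-BECs, 23.4 in cultured Cont LECs and 50.85 in OE-LECs. It was lowest in cultured Cont BECs and higher in both OE libraries than in their controls. The ratio was 0.65 (0.39 to 0.91) in OE-BECs and 1.14 (1.0001 to 1.27) in OE-LECs, a 2.20-fold higher level and the 243rd highest of 12342 genes, against -0.28 (-0.45 to -0.11) in skin. Mcam (chr9:44134469-44142727, + strand), the junctional molecule, was at 379, 262, 609, 393, 548 and 436 CPM in skin Cont, the library labelled cKO, cultured Cont BECs, OE-BECs, cultured Cont LECs and OE-LECs. Each changed library was below its own control, with ratios of -0.59 (-0.66 to -0.52) in skin, -0.59 (-0.64 to -0.55) in OE-BECs and -0.31 (-0.35 to -0.28) in OE-LECs.

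**Figure D2:**
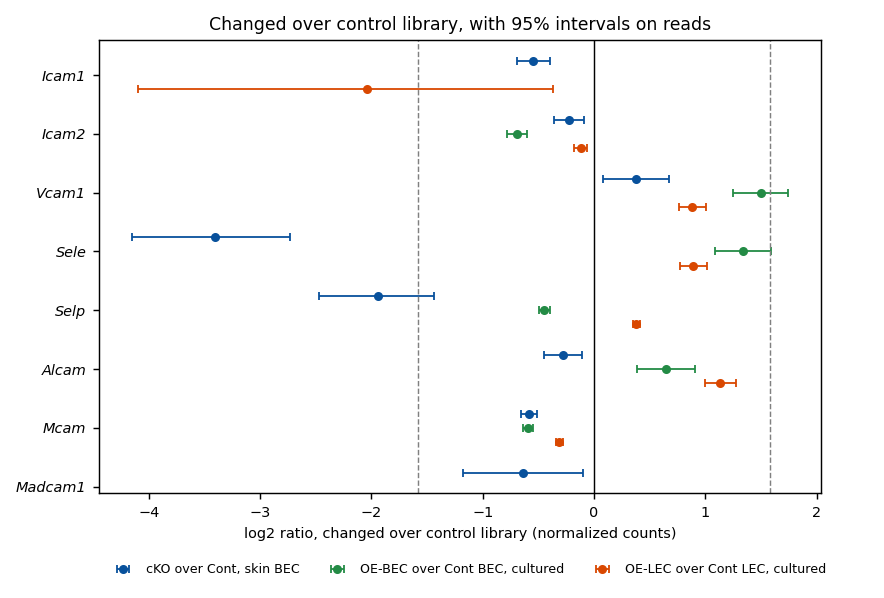
Log2 ratio of normalized counts, changed over control library (x axis), for each gene (y axis) in the 3 comparisons, with points for the ratio and bars for the exact 95% interval on the reads, for pairs with at least 10 reads. Dashed lines mark 3-fold. Sele and Selp lie at -3.40 and -1.94 in skin, and Sele, Vcam1 and Alcam lie above 0 in both OE comparisons.

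By the rule of the study, a normalized count of at least 5 in the higher library and more than 3-fold, 2 of the 8 genes (Sele and Selp) were called lower in the library labelled cKO, where 2.41% of 15993 genes were, and 0 were called higher, where 5.17% were. The call of Selp was lost when the pair was scaled to the endothelial markers (-1.18), and both were lost in the edgeR exact test with an assumed variation of 0.4. With more than 2-fold and at least 20 reads in the pair, the lower calls were again Sele and Selp, of a background of 3.5%, and there were 0 higher calls, of 7.45%. The median ratio of the 8 genes was -0.57, beside -0.01 for all genes, and turned to 0.19 when scaled to the endothelial markers, where the median of all genes was 0.75. In OE-BECs, where the study's minimum is 3, 1 gene was called lower (Madcam1, on 4 and 0 reads; background 5.27%) and 0 higher (8.02%). The 2-fold rule called Vcam1 and Sele higher among 6 genes with enough reads (background 4.61%) and 0 lower (5.98%). Scaled to the endothelial markers, where the median of all genes was 0.52, the 3-fold rule called Vcam1 (2.03) and Sele (1.87) higher and Madcam1 no longer. The edgeR exact test with an assumed variation of 0.4 called 0 genes in this pair. In OE-LECs the 3-fold rule called 1 gene lower (Icam1, on 14 and 4 reads; background 2.09%) and 0 higher (2.77%), and the 2-fold rule called Alcam higher (2.49%) and 0 lower (1.77%). The cultured 3-fold calls under the main scaling thus rest on a handful of reads, and no call has a replicate behind it.

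**Figure D3:**
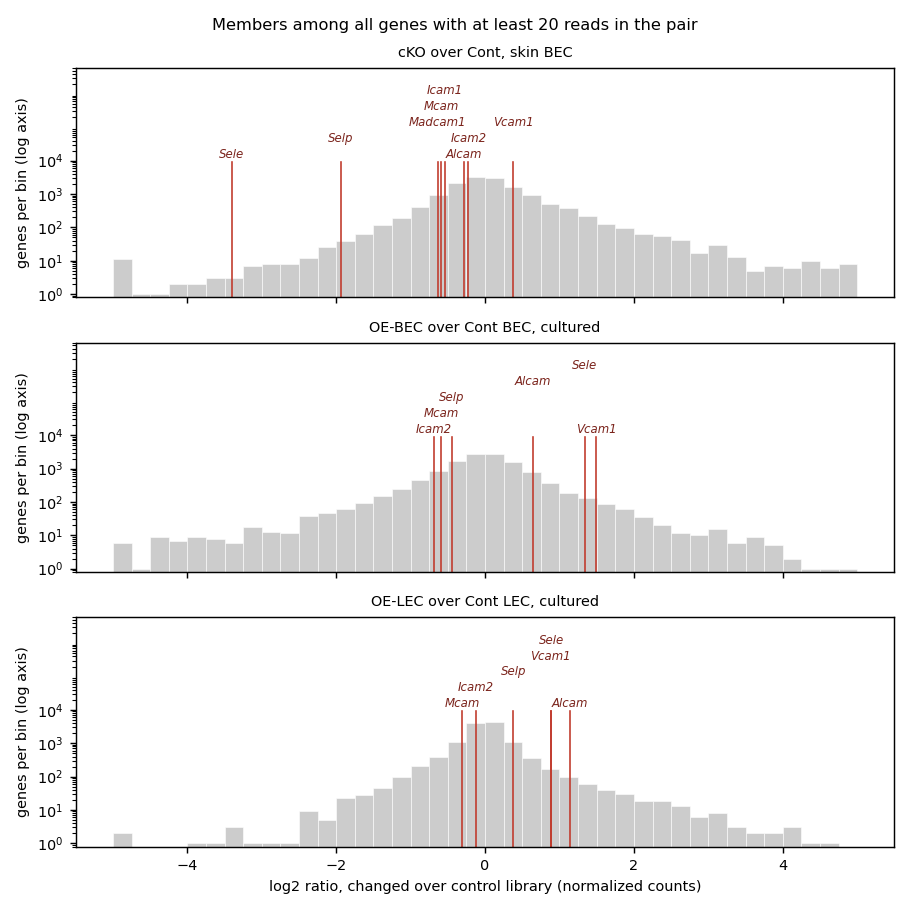
Genes per bin of 0.25 (y axis, log scale) by log2 ratio, changed over control library (x axis), for genes with 20 or more reads over the pair and some in each library, with values past 5 in the outer bins, and red lines for the adhesion genes that passed. Sele and Selp lie in the lower tail in skin, and Vcam1 and Sele in the upper tail in OE-BECs.

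Both OE comparisons had Sele, Vcam1 and Alcam above 0 and Icam2 and Mcam below 0, but the sizes differed. The ratio in OE-LECs minus that in OE-BECs was -0.61 (-0.89 to -0.34) for Vcam1 and -0.45 (-0.73 to -0.17) for Sele, which differed more from control in OE-BECs. It was 0.49 (0.19 to 0.78) for Alcam, 0.57 (0.46 to 0.68) for Icam2, 0.28 (0.22 to 0.34) for Mcam and 0.83 (0.77 to 0.88) for Selp, the 1 gene with opposite signs under the main scaling. Scaled to the summed endothelial markers described further on, the difference was 0.0002 for Alcam (-0.29 to 0.29) and 0.08 for Icam2 (-0.03 to 0.19), both spanning 0, turned to -0.20 for Mcam (-0.26 to -0.15), and was 0.34 for Selp (0.28 to 0.40), -1.10 for Vcam1 (-1.38 to -0.83) and -0.93 for Sele (-1.22 to -0.65). The differences of Vcam1 and Sele kept their direction on both scales. The controls already differed, since cultured Cont LECs were above cultured Cont BECs for Vcam1 (1.41, 1.19 to 1.64), Sele (1.30, 1.07 to 1.53) and Alcam (0.76, 0.54 to 0.98). Under the main scaling Selp did not differ between these controls beyond counting error (0.03, -0.01 to 0.07). In CPM it was higher in cultured Cont LECs, at 575 (566 to 584) against 524 (513 to 534) in cultured Cont BECs. Per 1000 reads of the endothelial markers it was at 79.6 and 69.4, so the result depends on the scale. Those 2 libraries differ in line, source tissue and label, which cannot be told apart, and the OE ratios share them as denominators.

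Levels between genes were compared per kilobase of exon (GENCODE M21). Mcam was the highest in 5 libraries, from 78.3 to 182 CPM per kilobase, and Selp was the highest in OE-LECs, at 167 (165 to 170) against 130 (128 to 132) for Mcam. In skin Cont the order was Mcam (113), Icam2 (52.2), Icam1 (21.3), Alcam (8.81), Sele (6.32), Madcam1 (5.26), Selp (3.32) and Vcam1 (1.96), and the intervals of Sele and Madcam1 overlapped. In the library labelled cKO it was Mcam (78.3), Icam2 (46.4), Icam1 (15.2), Alcam (7.54), Madcam1 (3.52), Vcam1 (2.64), Selp (0.899) and Sele (0.620), so Sele went from the fifth place to the last. Here Madcam1 and Vcam1, and Selp and Sele, could not be ordered beyond their intervals. In all 4 cultured libraries Mcam, Selp and Icam2 made up the top 3 places and Sele the fourth, from 3.86 CPM per kilobase in cultured Cont BECs to 18.7 in OE-LECs, with Icam1 and Madcam1 last. Vcam1 and Alcam overlapped in both LEC libraries. As a share of the 8 genes' summed level, Selp was 1.56% in skin Cont and 0.580% in the library labelled cKO, against 29.9%, 31.2%, 33.2% and 41.4% in cultured Cont BECs, OE-BECs, cultured Cont LECs and OE-LECs.

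**Figure D4:**
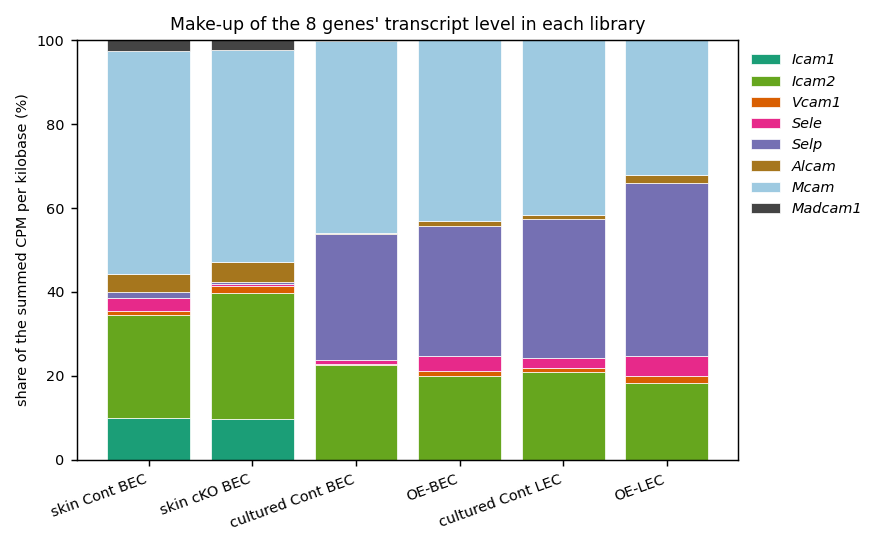
Share of the summed CPM per kilobase of the 8 genes taken by each (y axis, percent) in the 6 libraries (x axis), stacked in 1 bar per library. Mcam is the largest share except in OE-LECs, Selp is 29.9% to 41.4% in culture and under 2% in skin, and Icam1 appears in skin alone at this scale.

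Markers of cell types moved with the skin pair. The endothelial markers were Pecam1, Cdh5, Kdr, Tek, Tie1, Emcn, Cd34, Eng, Esam and Flt1. The 10 endothelial markers summed to 6788 CPM in skin Cont and 4164 CPM in the library labelled cKO, with 9 of 10 lower and a median ratio of -0.75. The macrophage list (Ptprc, Adgre1 and 10 others, none at 0 in skin) summed to 3751 and 5874 CPM, with 11 of 12 higher, although the gate removed F4/80+ and CD45+ cells. The 8 platelet markers, of a cell that also holds P-selectin, summed to 175 and 308 CPM with 3 of 5 readable ones higher, whereas Selp was lower. The 8 keratinocyte markers summed to 228 and 393 CPM (6 of 8 higher), the 10 pericyte markers to 976 and 807 CPM (8 lower) and the 8 fibroblast markers to 2537 and 1870 CPM (7 lower). Scaled to the endothelial markers, 11 of 12 macrophage, 5 of 5 readable platelet and 8 of 8 keratinocyte markers were higher. The pericyte and fibroblast counts turned on that scale, to 9 of 10 and 7 of 8 higher. It moves every gene up by 0.76 in skin, to a median of 0.75 for all genes, so counts above 0 carry that shift. The share of all genes above 0 on it was not counted. Beside 0.75, the list medians were 1.41 (macrophage), 0.90 (platelet), 1.35 (keratinocyte), 0.39 (pericyte) and 0.28 (fibroblast). The part of these cells in the ratios of the adhesion genes was not tested, and in bulk RNA fewer cells of a type and less RNA per cell cannot be told apart.

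Per 1000 reads of the endothelial markers, Sele was at 2.71 in skin Cont and 0.433 in the library labelled cKO, and Selp at 2.16 and 0.953, so both stayed lower on this scale. The other 6 genes were higher on it, Vcam1 at 2.56 and 5.63, Icam2 at 14.6 and 21.2, Alcam at 9.24 and 12.9, Mcam at 55.9 and 63.0, Icam1 at 13.7 and 15.9 and Madcam1 at 1.11 and 1.21. The directions of Icam1, Icam2, Alcam, Mcam and Madcam1 in skin therefore turn with the scale. In culture the macrophage list summed to 35.8 to 96.0 CPM, with Adgre1 at 0 in all 4 libraries, and the fibroblast list to 2.83 to 20.4 CPM. The endothelial sum was 7542 CPM in cultured Cont BECs and 5084 in OE-BECs, where Selp read 69.4 and 73.5 per 1000 endothelial reads and so turned from below its control to above it. The markers themselves spread widely in this pair, from -2.14 for Flt1 to 0.78 for Cd34, with a median ratio of -0.33. The sum was 7227 CPM in cultured Cont LECs and 6928 in OE-LECs, where Selp read 79.6 and 107.

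Genes around these molecules were read from lists of their pathways, whose counts past 2-fold stand beside the shares of all genes, 7.45% higher and 3.5% lower in skin, 4.61% higher and 5.98% lower for OE-BECs, 2.49% higher and 1.77% lower for OE-LECs. The endothelial scale, on which the endothelial marker sum of a pair is set equal, moves the ratio of every gene up by 0.76 in skin, 0.53 in the BEC pair and 0.04 in the LEC pair. Counts of higher and lower genes in the first 2 pairs thus hold for the main scaling only, and where stated they are given on both. Counts past 2-fold are on the main scaling unless stated. On the endothelial scale the median of all genes was 0.75 in skin and 0.52 in the BEC pair. The shares of all genes above 0 or past 2-fold on it were not counted. Counts on that scale thus carry the upward shift common to all genes and are no result about a list by themselves. Of 27 genes of NF-kB and of TNF or IL-1 input, 19 were lower and 8 higher in the library labelled cKO, with a median ratio of -0.26 beside -0.01 for all genes. Past 2-fold were 1 higher and 2 lower. On the endothelial scale 24 were higher and 3 lower, with a median ratio of 0.50 beside 0.75 for all genes. Past 2-fold on that scale were 5 higher and 0 lower. Nfkbiz, a nuclear partner of NF-kB, was at 436 CPM in skin Cont and 169 in the library labelled cKO (-1.43, -1.51 to -1.35), and Tnfaip3, the A20 feedback inhibitor of NF-kB, at 159 and 70.7 (-1.22, -1.35 to -1.10). On the endothelial scale they stood at -0.67 and -0.46, short of 2-fold. Il1rl1, the IL-33 receptor that mast cells also carry, was higher at 100 and 296 CPM (1.51, 1.40 to 1.61). In OE-BECs 9 of 24 readable genes were higher, 15 lower and 0 past 2-fold, with Tnfaip3 at 11.2 and 17.7 CPM (0.70, 0.42 to 0.97). On the endothelial scale 21 were higher and 3 lower, with 1 past 2-fold, Tnfaip3 at 1.23. The list median there was 0.43, beside 0.52 for all genes. In OE-LECs 15 of 25 were higher and 10 lower, and Tnfaip3 at 17.3 and 37.0 CPM (1.12, 0.96 to 1.28) and Il1r1, an IL-1 receptor, at 1.15 and 2.35 CPM (1.05, 0.42 to 1.72) passed 2-fold. In OE-LECs, where the scales differ little, Nfkbiz was at -0.23 (-0.34 to -0.12) and Nfkbia, the classical NF-kB inhibitor, at -0.33 (-0.39 to -0.27), on the other side of 0 from Tnfaip3. In OE-BECs Nfkbiz was at -0.22 and Nfkbia at 0.21, or at 0.31 and 0.74 on the endothelial scale, and in skin Nfkbia was at -0.68, or at 0.08 on that scale.

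Of the Weibel-Palade body list, 14 genes were readable in skin (8 higher, 6 lower) and 13 in each cultured pair (4 and 9 in OE-BECs, 7 and 6 in OE-LECs). On the endothelial scale 13 were higher and 1 lower in skin, 11 higher and 2 lower in OE-BECs, 8 higher and 5 lower in OE-LECs. Past 2-fold higher in skin was 1 gene under the main scaling and 6 on the endothelial scale, where the share of all genes was not counted. The list medians on that scale were 0.98 in skin and 0.35 in OE-BECs, beside 0.75 and 0.52 for all genes. Vwf, which forms the granule that stores P-selectin, was at 131 CPM in skin Cont and 78.6 in the library labelled cKO (-0.79, -0.92 to -0.67). It was at 204 CPM in cultured Cont BECs and 43.8 in OE-BECs (-2.18, -2.31 to -2.06), and at 31.6 CPM in cultured Cont LECs and 8.38 in OE-LECs (-1.89, -2.10 to -1.69). Vwf was thus below control in both cultured pairs, also in OE-LECs where Selp was above it. In skin its ratio was close to the median of the endothelial markers and became -0.03 when scaled to them. Rab27a, a GTPase of the granule, was lower in OE-BECs at 28.9 and 11.6 CPM (-1.28, -1.55 to -1.03), and at -0.75 on the endothelial scale. Angpt2, a stored ligand of the receptor Tie2, was higher in the library labelled cKO at 85.1 and 215 CPM (1.28, 1.16 to 1.40) and in OE-BECs at 3.96 and 8.11 CPM (1.07, 0.63 to 1.53).

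Among other genes of adhesion and transmigration, Jam2, a junctional molecule that leukocytes pass, was past 2-fold lower in every pair under the main scaling, and at -0.62 in skin when scaled to the endothelial markers. Its level was 81.5 CPM in skin Cont and 32.5 in the library labelled cKO (-1.38, -1.57 to -1.20), 1103 and 122 in the BEC pair (-3.14, -3.21 to -3.07), and 220 and 90.0 in the LEC pair (-1.27, -1.34 to -1.21). Stab1, a scavenger receptor also used in lymphocyte adhesion, was lower in OE-BECs (-1.23, -1.27 to -1.19, and -0.70 on the endothelial scale) and OE-LECs (-1.11, -1.15 to -1.07) but higher in the library labelled cKO, at 1278 and 2170 CPM (0.71, 0.68 to 0.74, and 1.47 on that scale). Cd44, which binds hyaluronan and E-selectin, was higher in OE-BECs (1.45, 1.32 to 1.57), OE-LECs (0.84, 0.78 to 0.90) and the library labelled cKO (0.33, 0.23 to 0.43). On the endothelial scale its ratios were 1.98, 0.88 and 1.09, so that it passed 2-fold in skin on that scale. The list as a whole had 13 of 19 readable genes lower in skin, 10 of 17 in OE-BECs and 9 of 18 in OE-LECs, against 3, 3 and 7 lower on the endothelial scale. Its medians on that scale were 0.53 in skin and 0.25 in OE-BECs, beside 0.75 and 0.52 for all genes. Pecam1, Cdh5 and Esam are also endothelial markers, so that scale is set in part by genes of this list. In this list Aoc3, on 9 and 23 reads (1.12, -0.04 to 2.42, spanning 0), and Icam5, on 5 and 18 reads (1.62, 0.13 to 3.40), passed 2-fold higher in OE-LECs.

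The genes for selectin ligands and sialomucins had 9 of 10 members lower in skin with 0 past 2-fold, where the endothelial markers, of which Cd34 and Emcn are on both lists, were lower too. Scaled to those markers, 3 of 10 were lower, among them the sialomucin Podxl, which was at 453 and 236 CPM (-0.99, -1.07 to -0.92, and -0.23 on that scale). In the cultured pairs 5 of 9 were lower in OE-BECs (2 of 9 on the endothelial scale), with Fut4, a fucosyltransferase of selectin ligands, at 129 and 8 reads (-3.63, -4.87 to -2.61), and 6 of 9 were higher in OE-LECs, with Gcnt1, which branches their O-glycans, at 36 and 117 reads (1.47, 0.92 to 2.05). The leukocyte counter-receptors, integrins and other surface proteins of blood cells, had 7 of 8 higher in the library labelled cKO (8 of 8 on the endothelial scale). Itgam (1.46, 1.25 to 1.68), Itgb7 (1.14, 0.68 to 1.62) and Itgax (1 and 25 reads) were past 2-fold, beside the macrophage list that was higher there. On the endothelial scale 7 of the 8 were past 2-fold higher, with a list median of 1.63 beside 0.75 for all genes. In OE-BECs Itgax was lower (-1.65, -1.99 to -1.32) and Itgb7 higher on 18 and 29 reads. In OE-LECs Itgb2 was at 26.6 and 52.9 CPM (1.01, 0.88 to 1.14), and Itgb7 and Spn passed 2-fold higher, with 9 and 51 reads for Itgb7 and 5 and 18 reads for Spn. Of the proteases and ligands that shed or bind these molecules, 3 of 7 were higher in skin (5 of 7 on the endothelial scale). In OE-BECs 1 of 5 was higher (5 of 5 on that scale), and in OE-LECs 3 of 6 (4 of 6). The list medians on that scale were 0.74 in skin and 0.12 in OE-BECs, beside 0.75 and 0.52 for all genes. Adam8 was past 2-fold higher in all 3 pairs (1.90 in skin, 1.38 in OE-BECs and 1.16 in OE-LECs), and in skin Lgals3 (2.34, 1.91 to 2.81), a galectin, was higher and Mmp9 (-1.53, -2.18 to -0.91, and -0.77 on the endothelial scale), a gelatinase, lower.

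The genes whose profile over the 6 libraries lay closest to each adhesion gene were found by the root mean square difference of log2(CPM + 1) after centring, among 13643 genes. Over only 6 points of 1 library each, this is a description of likeness. The closest to Sele were Ptgs2 (0.42), Cxcl1 (0.49) and Crip2 (0.50). Ptgs2, the inducible cyclooxygenase, was at 47.2 CPM in skin Cont, 12.7 in the library labelled cKO, 72.8 in cultured Cont BECs, 107 in OE-BECs, 130 in cultured Cont LECs and 303 in OE-LECs, the order of libraries that Sele has except for skin Cont and cultured Cont BECs. Cxcl1, a neutrophil chemokine, was at 36.2 and 7.04 CPM in the skin pair, 23.6 and 56.0 in the BEC pair and 57.1 and 49.6 in the LEC pair, so it did not follow Sele in the last. The closest to Vcam1 were Smim3 (0.10), Tm4sf1 (0.20) and Spns3 (0.24), and those closest to Selp were Col13a1 (0.44), Sh2d5 (0.54) and Itgb3 (0.56). Spns3 was at 0.226 CPM in skin Cont and 0.170 CPM in cultured Cont BECs, which is 3 reads or fewer. Since 1 is added to each CPM, differences at levels this low weigh little, in this match and in others. Icam1 lay closest to Itih5 (0.08), Cybb (0.14) and Gnai1 (0.15), all of them near 0 in culture. Cybb, the phagocyte oxidase subunit, was at 69.4 and 54.6 CPM in skin Cont and the library labelled cKO, whereas 11 of 12 macrophage markers were higher in the latter. Madcam1 lay closest to Galnt15 (0.08), Zfp69 (0.09) and Susd2 (0.10), and Alcam to Maged2 (0.23), Traf4 (0.24) and Gsta4 (0.24). Icam2, nearest to Zfp775, Ndufc2 and Nprl2, and Mcam, nearest to Pcdhb5, Insl3 and Ubl7, had the narrowest spans of the 8 genes over the libraries, with differences of 0.05 to 0.09. Insl3 was at 0.271 CPM in the library labelled cKO, again 3 reads or fewer.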

How the data were processed

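Cells from 6 mouse libraries, 1 per condition, were profiled. The authors made ScriptSeq libraries, trimmed reads with skewer, aligned them to mm10 with STAR (per the labels and the study's methods), counted them per gene with VERSE, and deposited the raw counts of 24421 genes, of which 4473 had no reads. Totals ran from 8863349 to 31032461 reads.

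Counts were scaled within each pair by the median of ratios of DESeq2 1.42.0 in R 4.3.3. Ratios carry exact (Clopper-Pearson) 95% intervals on the reads, levels exact Poisson 95% intervals. With 1 library per condition, the spread between replicates is unknown, and the reported values carry no test of a condition and no p-value. Up to 3 reads was treated as the floor. A replicated count test could not be run. As an alternative, the exact test of edgeR 4.0.16 was run with an assumed coefficient of variation of 0.2 or 0.4 and an adjusted p threshold of 0.05, so its calls rest on that assumption. Other alternatives were the scaling, the fold, the read minimum and the pseudocount. Exon lengths are from GENCODE M21, promoters from RefSeq (GRCm38.p6). The calculation was tested on simulated data. The named genes are the 8 members, Dot1l, the pathway genes past 2-fold with at least 20 reads (or the best read ones where fewer than 2 were) and the 3 nearest profiles per member with a level of at least 3 CPM in some library, plus genes whose choice followed their values (Podxl, Vwf in skin, Tnfaip3, Nfkbiz and Nfkbia in OE-BECs, Nfkbia in skin, Nfkbiz and Nfkbia in OE-LECs, Stab1 in skin, Cd44 in skin and OE-LECs). One pathway gene past 2-fold is not reported here. The members and lists were chosen with earlier results of these data known. The quotients of Sele to Selp and of Sele to Vcam1 were not planned beforehand, and no other pairs of members were compared in that way.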

Additional observations from a re-analysis of the deposited data

Results flagged for a closer look

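Selp stood out because the libraries with raised Dot1l lay on opposite sides of their controls. Its log2 ratio was -0.45 in OE-BECs and 0.38 in OE-LECs, a difference of 0.83 (0.77 to 0.88, counting error only), and with 1 library per condition this difference was not tested. Scaled to the summed endothelial markers, a setting chosen after seeing the data, the ratios were 0.082 and 0.42, both above 0.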

How the results depend on the processing

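Of 139 values of single genes under alternative settings, 123 stayed within the interval of the reported value, 10 moved beyond it and 6 reversed, all 16 under scaling to the summed endothelial markers, a setting chosen after seeing the data. That scaling shifts the median of all genes by 0.76 in skin, 0.53 in OE-BECs and 0.04 in OE-LECs, and relative to that shift the order of the genes is the same. Under it the skin ratios became 0.22 for Icam1, 0.53 for Icam2, 0.48 for Alcam, 0.17 for Mcam and 0.12 for Madcam1. In OE-BECs Selp became 0.082, Icam2 -0.16 and Mcam -0.064. The medians became 0.19 in skin, 0.63 in OE-BECs and 0.42 in OE-LECs, with 1 gene called in skin (Sele) and 2 in OE-BECs (Vcam1 and Sele). Over all scalings Sele stayed between -3.40 and -2.64 and Selp between -1.94 and -1.18 in skin. With no read minimum and a pseudocount of 1 the median was -0.071 in OE-BECs and 0.63 in OE-LECs, and a minimum of 20 reads gave 0.63 in OE-LECs. A fold over 2 at the study's low minimum gave 3 genes in OE-BECs and 2 in OE-LECs, 1 more in each than with at least 20 reads in the pair, and a minimum of 20 normalized counts gave 0 in both. The edgeR exact test with an assumed variation of 0.4 gave 0 genes in each comparison. At 0.2 it gave 0 in OE-LECs, 2 in skin (Sele and Selp) and 1 in OE-BECs (Vcam1 in place of Madcam1). No paired analysis was possible because each condition has 1 library, and for the same reason no replicate could be left out. Icam1 and Madcam1 in culture, at 14 reads or fewer, are limited by depth.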
